A study of Anguilla anguilla with 6 samples.

Results

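The bone morphogenetic protein (BMP) and growth differentiation factor (GDF) family of the eel ovary is described here through 51 of 45974 gene models. They are the models whose best protein match is described as a bone morphogenetic protein or one of its receptors, a growth differentiation factor, a noggin, a chordin or a gremlin. They carry 27 protein names, and by role they are 26 models of ligands, 11 of receptors, 10 of extracellular antagonists and modulators, and 4 of the proteinase BMP1. The ovaries came from European eels (Anguilla anguilla) of a commercial farm, and mRNA was sequenced from 1 library per animal. The 4 animals labelled responder and the 2 labelled non-responder had all received 4 weekly injections of gonadotropins, so both groups are hormone-treated and no untreated ovary was analysed here. The labels give neither an age nor a definition of the response, and each library pools pieces from along the gonad, so oocytes and somatic cells are measured together.

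BMPs and GDFs are secreted dimers of the TGF-beta superfamily that bring together type I and type II receptor kinases. In the BMP branch the receptors phosphorylate SMAD1, SMAD5 and SMAD9, which enter the nucleus with SMAD4 and induce genes such as those of the ID proteins. Noggins, chordins and gremlins bind the ligands outside the cell and keep them from their receptors. In vertebrate ovaries the oocyte itself secretes GDF9 and BMP15, which act on the granulosa cells around it, while other BMPs come mainly from somatic cells.

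Expression is given as the authors' mean scaled count per group, a read count divided by a size factor of the library. The smallest mean above 0 in the whole table was 0.214 in responders and 0.471 in non-responders. Values per library were not used here because their columns carry no label of an animal, so the means have no SD and overlap between animals was not examined. Each log2 is that of the responder mean over the non-responder mean. The authors' p-values come from 4 animals against 2, and a model was called at an adjusted p under 0.05 over the 37072 models with a p. Summed over all models, the group means came to 11695525 scaled counts in responders and 12635190 in non-responders. Over the 23266 models averaging 5 or more scaled counts the median log2 was 0.01.

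The tissue label was checked against marker genes. The 15 models of the oocyte genes ZP2, ZP3, ZP4 and ZAR1 summed to 443867 scaled counts in responders and 666119 in non-responders, and each of them had a ratio below 1, with a median log2 of -0.42. Of the 8 granulosa and theca markers, 7 were matched, and their models summed to 1906 scaled counts in responders and 1415 in non-responders. CYP17A1 accounted for 961 of this sum in responders and 406 in non-responders, whereas HSD3B had 554 and 691 and CYP19A1 33.1 and 47.4. AMH had 1.88 scaled counts in responders and 2.73 in non-responders. Every gene of the endothelial, erythrocyte, leukocyte, smooth muscle and adipocyte lists was above 0. Some were near the floor, such as CSF1R (0.217 scaled counts in responders and 0.471 in non-responders) and PECAM1 (0.824 and 1.49). The summed levels were 144 scaled counts in responders and 218 in non-responders for endothelial markers, 1824 and 1655 for erythrocyte markers, and 112 and 84.6 for leukocyte markers. Smooth muscle markers summed to 3517 and 3587, and adipocyte markers to 17870 and 18314. HBB held 925 of the erythrocyte sum in responders and 581 in non-responders, and HBA 866 and 1028. CDH5 held 49.2 and 115 of the endothelial sum, and CNN1 81.1 and 173 of the smooth muscle sum. Models averaging 5 or more had a ratio above 1 in 3 of 7 cases for endothelial and 2 of 8 for erythrocyte markers. For leukocyte markers it was 5 of 7, and for smooth muscle markers 7 of 9. The adipocyte sum was nearly all FABP4, with 17646 scaled counts in responders and 18197 in non-responders, and the other 4 genes had higher means in responders, at 126 and 66.3 for CEBPA, 51.1 and 26.7 for PLIN1, 37.1 and 21.3 for PPARG, and 9.71 and 3.37 for ADIPOQ. None of these marker models was called. At an unadjusted p under 0.05 in the authors' deposited table, 3 of the 15 ZP2, ZP3, ZP4 and ZAR1 models were lower. Among all models with a p, 1.59% were lower at that threshold, and such counts are not given here for the other lists. The part of the marker genes in the results below was not tested. In whole ovary pieces, fewer cells of a type and less RNA per cell cannot be told apart.

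Of the 51 family models, 11 were listed at 0 in both groups and 40 had a p. A single model was called, the noggin-2 model g22318, which was higher in responders, and 0 were called lower. That is 2.5% of the 40, against 0.183% of all models with a p in the authors' deposited table, 0.121% higher and 0.0620% lower. At an unadjusted p under 0.05 in the authors' deposited table, 3 were higher and 0 were lower, beside 2.07% higher and 1.59% lower among all models with a p. An average of 5 or more scaled counts was reached by 19 models with 12 names. Of these, 13 had a ratio above 1 and 6 a ratio below it, with a median log2 of 0.15 and an interquartile range of -0.04 to 0.65. Most of them differed little between the groups, since 14 of the 19 lay within 1.5-fold of equality, or 73.7%, beside 74.6% of all models of that level. Chordin-like 1 (g1224) and a BMP1 model (g9669) reached an average of 5 only through their responder means, so these counts and the median describe the models of that level and support no direction for the family.

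**Figure D1:**
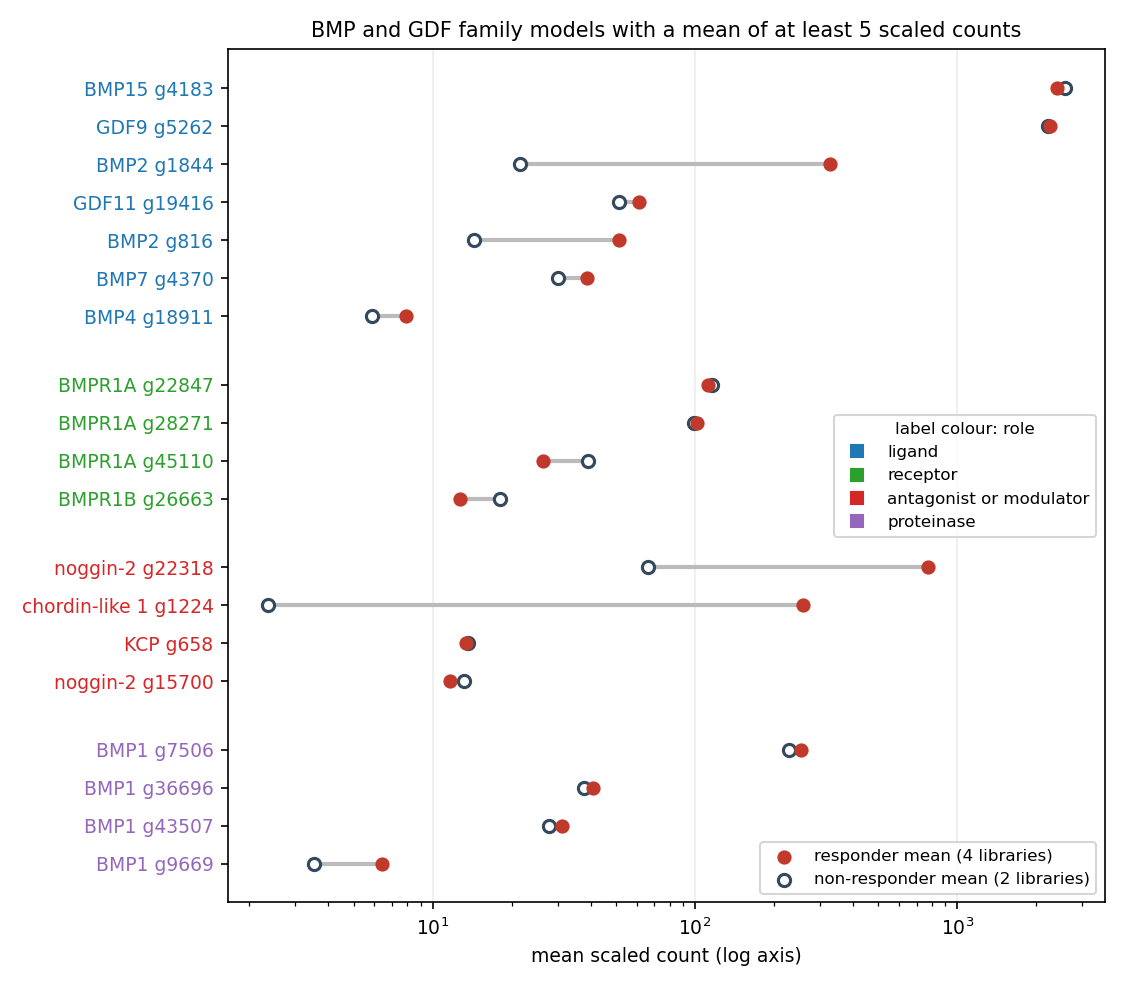
Mean scaled counts (log axis) of the 19 family models averaging 5 or more, in responders (filled, 4 libraries) and non-responders (open, 2 libraries). A line joins the means and label colour gives the role. No spread is shown, because values per library were not used. The means of BMP15, GDF9, KCP and the 2 longest BMPR1A models nearly coincide, whereas noggin-2 g22318 (771 and 66.2) and chordin-like 1 g1224 (259 and 2.35) lie far apart.

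The oocyte ligands had the highest levels per kilobase of all members and nearly equal means in both groups. BMP15 (g4183), which in mammals promotes follicle growth and influences ovulation rate, had 2410 scaled counts in responders and 2572 in non-responders (log2 -0.09, unadjusted p = 0.76 in the authors' deposited table). GDF9 (g5262), its partner from the oocyte, had 2258 scaled counts in responders and 2213 in non-responders (log2 0.03, unadjusted p = 1 in the authors' deposited table). Per kilobase of transcript the means were 1090 in responders and 1163 in non-responders for BMP15, against 792 and 776 for GDF9, so the levels of both oocyte ligands were of the same order. By mean level per kilobase over all libraries, BMP15 stood at place 1379 and GDF9 at place 1926 of the 23266 models. Together these ligands held 90.3% of the scaled counts of all ligand models in responders and 97.4% in non-responders. Neither passed the test, and the sign of the small BMP15 difference turned when the groups were rescaled to equal sums (log2 0.02). The egg envelope and ZAR1 models had log2 values from -0.97 to -0.07. BMP15 (-0.09) lay inside this range near its upper end and GDF9 (0.03) lay above it, and no difference from these models was tested.

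BMP2 was the ligand with the largest difference in means. BMP2 patterns early embryos and, in mammals, is made by somatic cells of the ovary. The model g1844 had 328 scaled counts in responders and 21.6 in non-responders (log2 3.93, unadjusted p = 0.0061 and adjusted p = 0.59 in the authors' deposited table), and did not pass. In the whole table, 381 models had a smaller p. The spread behind that p was not analysed here. A second BMP2 model, g816, had 51.3 scaled counts in responders and 14.4 in non-responders (log2 1.83, unadjusted p = 0.090 in the authors' deposited table), so it leaned the same way and did not pass either. The remaining 3 BMP2 models and a BMP2-B model had at most 0.863 scaled counts in responders and were listed at 0 in non-responders. The similarity of g1844 to its best match, human BMP2, was 0.469 in the deposited annotation, against 0.921 for g816 and pufferfish BMP2. The RefSeq annotation of the eel assembly fAngAng1.pri lists bmp2a, bmp2b and the related fish gene bmp16 separately, and since the table's identifiers do not match it, which of these g1844 stands for was not tested.

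The other ligands were low or undetected. GDF11, which patterns the body axis, had 61.4 scaled counts in responders and 51.3 in non-responders (g19416, log2 0.26). BMP7, a broadly expressed BMP that mammalian theca cells also make, had 38.6 and 30.0 (g4370, log2 0.37). BMP4, the closest relative of BMP2, had 7.93 scaled counts in responders and 5.88 in non-responders (g18911, log2 0.43). All 3 had means slightly higher in responders and did not pass. Myostatin (GDF8, g8636), the inhibitor of muscle growth, had 5.53 scaled counts in responders and 0.547 in non-responders, with an unadjusted p = 0.21 in the authors' deposited table. The rest of the 26 ligand models had means of at most 2.52 scaled counts over all libraries. Among them, 9 models were listed at 0 in both groups, comprising BMP10, BMP3B, GDF5, GDF15, 3 of GDF6A and 1 each of BMP2 and BMP4. Of the 7 ligand models averaging 5 or more scaled counts, 6 had a ratio above 1, beside 11781 of the 23266 models of that level.

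**Figure D2:**
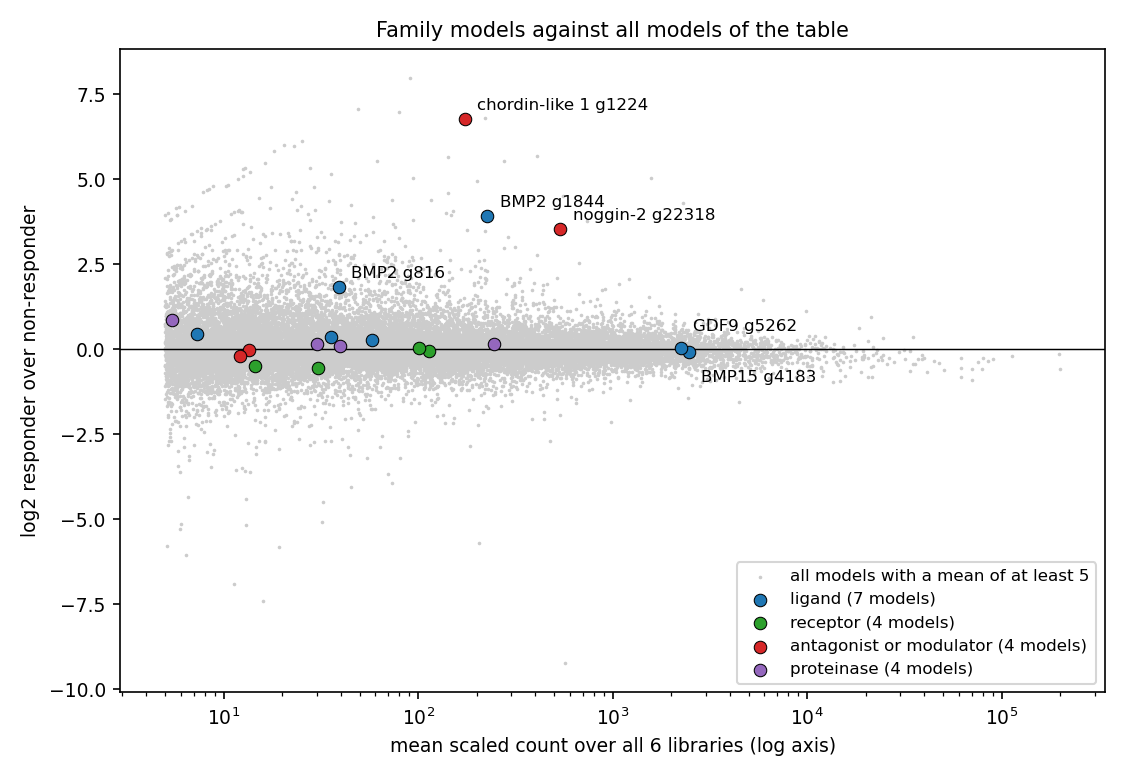
Log2 of responder over non-responder against the mean scaled count over all 6 libraries (log axis); grey points are all models averaging 5 or more with a value above 0 in both groups, coloured points the 19 family models by role. Chordin-like 1 (log2 6.78), BMP2 g1844 (3.93) and noggin-2 g22318 (3.54) have the largest ratios of the 19, and BMP15 and GDF9 lie near 0.

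Receptor transcripts showed no difference past the threshold. BMPR1A, a type I receptor kinase used by BMP2 and BMP4, had the highest levels per kilobase of the family's own receptor models, and its longest model g22847 had 112 scaled counts in responders and 116 in non-responders (log2 -0.04, unadjusted p = 0.86 in the authors' deposited table). That sign turned with both groups rescaled to equal sums (log2 0.07). A shorter BMPR1A model, g28271, had 102 scaled counts in responders and 99.0 in non-responders (log2 0.04). The smallest p of the receptors belonged to a BMPR1A model of 242 bases, g45110, with 26.3 scaled counts in responders and 39.0 in non-responders (log2 -0.57, unadjusted p = 0.23 in the authors' deposited table). The 4 BMPR1A models span 180 to 4305 bases and can be pieces of 1 transcript or copies of the gene.

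BMPR1B, the type I receptor whose mutation raises ovulation rate in sheep, had 12.7 scaled counts in responders and 18.0 in non-responders (g26663, log2 -0.50, unadjusted p = 0.46 in the authors' deposited table). The type II receptor BMPR2, through which BMP15 signals in mammals, appeared as 6 models of 154 to 961 bases that together held 2.13 scaled counts in responders and 5.56 in non-responders. All 6 were under a mean of 5, and none of the 5 with a p in the authors' deposited table had one under 0.05. Per kilobase, the mean over all libraries was at most 2.17 for a BMPR2 model. For receptors that BMPs also use, the highest models had 17.6 (activin receptor ACVR2A, g3128), 27.4 (ACVR2B, g9184) and 132 (ACVR1, g11303). Some of their other models were below 2.17, such as ACVR2A g14508 (1.92) and ACVR2B g482 (1.36). ACVR2A g3128 had 63.6 scaled counts in responders and 45.2 in non-responders (log2 0.49). ACVR2B g9184 had 75.9 and 81.0 (log2 -0.09), and ACVR1 g11303 had 247 and 227 (log2 0.12).

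The extracellular antagonists held the single call of the family. Noggin-2, a protein that binds BMPs and blocks their receptor contacts, is the best match that names the model g22318. This model had 771 scaled counts in responders and 66.2 in non-responders. Its responder mean was 11.6 times its non-responder mean (log2 3.54, unadjusted p = 5.1e-08 and adjusted p = 1.1e-04 in the authors' deposited table). Its p was number 17 of 37072 from the smallest. Per kilobase its mean was 494 in responders and 42.4 in non-responders, which in responders is below GDF9 (792) and above the BMP2 model g1844 (129). Its best match is zebrafish noggin-2 with a similarity of 0.411, the lowest of the 51 models.

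A second model with the same name, g15700, matched zebrafish noggin-2 with a similarity of 0.682 and had 11.6 scaled counts in responders and 13.2 in non-responders (log2 -0.19, unadjusted p = 0.83 in the authors' deposited table). It did not pass, and the difference between the noggin-2 models was not tested. The RefSeq annotation of the eel assembly fAngAng1.pri lists nog2 and nog3. The table's identifiers do not match it, so which gene g22318 and g15700 each stand for was not tested. Noggin-3 (g19519) was lower in level still, with 3.77 scaled counts in responders and 6.26 in non-responders.

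Chordin-like 1 (CRDL1, g1224), a secreted BMP-binding protein also called ventroptin, had the largest ratio of the family models above 0 in both groups. Its mean was 259 scaled counts in responders and 2.35 in non-responders (log2 6.78, unadjusted p = 0.010 and adjusted p = 0.76 in the authors' deposited table), and it did not pass. The non-responder mean equals 5 times the smallest value above 0 in that group, so the 110-fold ratio rests on very few reads there. In the whole table, 494 models had a smaller p.

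The related CRDL2 (g10232) had 4.85 scaled counts in responders and 0.471 in non-responders (log2 3.37, unadjusted p = 0.087 in the authors' deposited table), and did not pass. Chordin and the gremlins were near the detection limit. Chordin (g8197), the dorsal organiser antagonist of embryos, had 0.703 scaled counts in responders and was listed at 0 in non-responders. Gremlin-1 (g1683), which granulosa cells of mammals make in response to oocyte ligands, had 2.22 scaled counts in responders and 3.05 in non-responders, and gremlin-2 (g7173) had 0.648 and 1.56. The kielin chordin-like protein KCP (g658), which in mice strengthens BMP signalling, was level at 13.4 scaled counts in responders and 13.7 in non-responders.

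**Figure D3:**
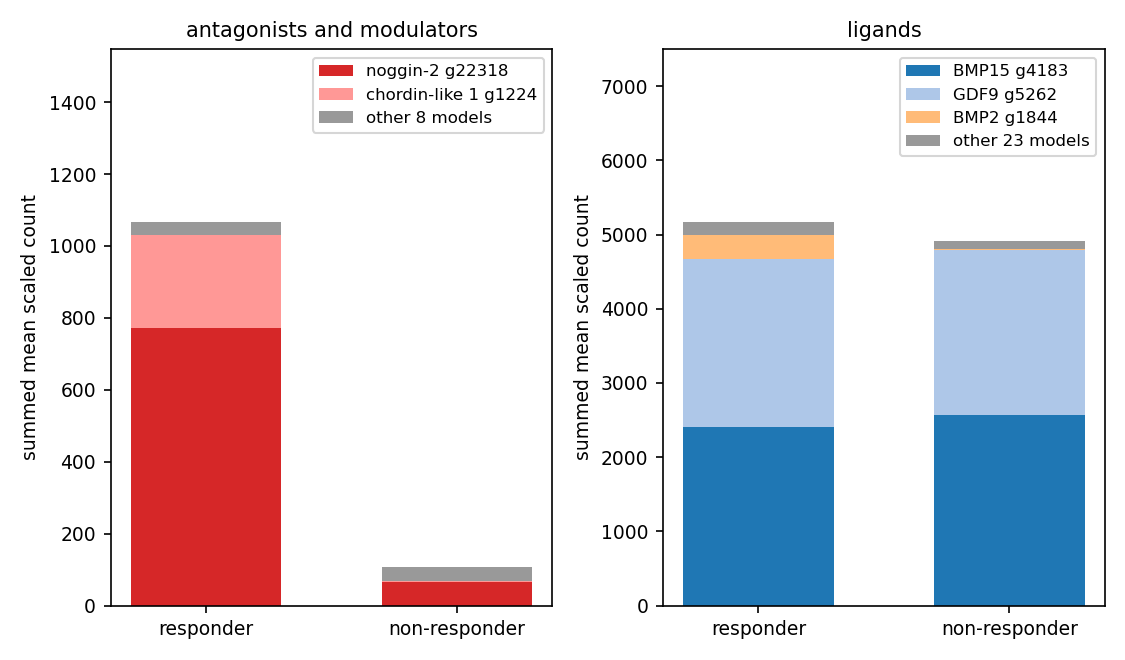
Summed mean scaled counts of the 10 antagonist and modulator models (left) and the 26 ligand models (right) in responders and non-responders, stacked by model. The sums are not corrected for transcript length. Both axes start at 0, and no spread is shown because values per library were not used. The antagonist sum is 1067 in responders and 107 in non-responders, the ligand sum 5170 and 4915. Of the models stacked, only noggin-2 g22318 was called.

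Summed over all 10 models, antagonist and modulator transcripts reached 1067 scaled counts in responders and 107 in non-responders. Noggin-2 g22318 and chordin-like 1 held 96.5% of this sum in responders and 64.2% in non-responders. Without them the other 8 models summed to 37.2 scaled counts in responders and 38.2 in non-responders, so the group sums differed in these 2 models and hardly in the rest. Ligand models summed to 5170 scaled counts in responders and 4915 in non-responders. Without BMP15 and GDF9 the ligand sum was 501 in responders and 130 in non-responders, most of it BMP2 in responders. No BMP2 model was called.

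BMP1 bears the family's name but is a metalloproteinase that trims procollagens and cleaves chordin. Its longest model, g7506, had 254 scaled counts in responders and 229 in non-responders (log2 0.15). Pieces of 156 and 202 bases (g36696 and g43507) had 40.7 and 31.1 scaled counts in responders and 37.8 and 27.8 in non-responders. The fourth model, g9669, had 6.41 and 3.52. None passed, and per kilobase the 2 short pieces ranked among the 5 highest of the family, at 261 and 154 in responders and 242 and 138 in non-responders, a measure that very short models make unreliable.

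Other genes of BMP signalling, together with the activin SMADs SMAD2 and SMAD3, were taken from a list of 39. Of these genes, 34 were matched by 92 models. By the authors' adjusted p from DESeq, 0 were called higher and 0 lower. At an unadjusted p under 0.05 in the authors' deposited table, 3 were higher and 2 lower, out of 88 models with a p, beside 3.67% of all models. Both lower models averaged under 5 scaled counts, although sclerostin g9117 (12.6) and hemojuvelin g10998 (5.86) were above 5 in non-responders. Among those averaging 5 or more, 3 were higher and 0 lower, or 5.45%, beside 5.61% of all models of that level. The average is taken over 4 responders and 2 non-responders, so the split of 3 and 0 depends in part on this filter. Of the 55 averaging 5 or more scaled counts, 38 had a ratio above 1 and 17 below, with a median log2 of 0.21. Beside this, 11781 of the 23266 models of that level had a ratio above 1, with a median log2 of 0.01. SMAD2 and SMAD3 supply 6 of the 55, 4 with a ratio above 1 and 2 below. The 55 carry 27 protein names, so several share a name and can be pieces of the same gene. Some, such as RGMB g4887 (15.6 in responders and 4.62 in non-responders) and SMURF1 g10065 (10.7 and 3.52), reached 5 only through their responder means. Others, such as SMAD5 g36912 (3.74 and 6.18) and NEO1 g16902 (1.85 and 5.48), were above 5 only in non-responders and were left out. These counts and the median therefore support no direction for the list.

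Among the targets, ID2 (g7381), a transcriptional inhibitor that BMP signals induce, had 294 scaled counts in responders and 141 in non-responders (log2 1.06, unadjusted p = 0.0056, adjusted p = 0.57 in the authors' deposited table). ID1, the best known BMP target, had a far more abundant model, g20038, with 8528 scaled counts in responders and 10006 in non-responders (log2 -0.23). The ID1 model g5955 had 1119 and 850 (log2 0.40). Of the other ID2 models, g26636 had 32.4 scaled counts in responders and 33.9 in non-responders (log2 -0.07), and g18594 had 13.5 and 6.42 (log2 1.07). So the ID models differed in sign and none passed.

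The inhibitory SMADs, which BMP signals induce and which damp them, both had models a little over 2-fold higher in mean. SMAD6 (g19038) had 48.4 scaled counts in responders and 20.9 in non-responders (log2 1.21, unadjusted p = 0.033, adjusted p = 1 in the authors' deposited table). SMAD7 (g1944) had 22.5 and 9.72 (log2 1.21, unadjusted p = 0.12 in the authors' deposited table). BAMBI, a pseudoreceptor without a kinase, had 575 scaled counts in responders and 241 in non-responders for the model g20663 (log2 1.25, unadjusted p = 0.10 in the authors' deposited table). Its more abundant model g13418 had 3951 and 4293 (log2 -0.12). None of these passed.

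SMAD1, SMAD5 and SMAD9, which carry the BMP signal, leaned the other way. SMAD1 (g11334) had 98.6 scaled counts in responders and 122 in non-responders (log2 -0.30), and SMAD5 (g11452) had 291 and 329 (log2 -0.18). The largest of these differences was that of SMAD9 (g24837), with 12.6 scaled counts in responders and 25.9 in non-responders (log2 -1.04, unadjusted p = 0.083 in the authors' deposited table). All 4 models of the group averaging 5 or more scaled counts had a ratio below 1 and none passed. Their common partner SMAD4 had 3 models of that level, all with a ratio above 1. Their log2 values ran from 0.08 (g28173) to 1.23 (g8415, unadjusted p = 0.094 in the authors' deposited table), and none passed.

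The smallest p of the list belonged to sclerostin (SOST, g9117), a secreted antagonist related to the gremlins that acts mainly on Wnt signalling. It had 0.769 scaled counts in responders and 12.6 in non-responders (log2 -4.03, unadjusted p = 2.9e-04, adjusted p = 0.11 in the authors' deposited table), and did not pass. Its mean over all libraries was 4.71, under the level of 5. A second SOST model, g7325, went the other way, with 3.80 scaled counts in responders and 0.471 in non-responders (log2 3.01, unadjusted p = 0.18 in the authors' deposited table). The coreceptor RGMB (g4887) had 15.6 and 4.62 (log2 1.76, unadjusted p = 0.038), while its more abundant model g4497 had 88.7 and 109 (log2 -0.30), in the authors' deposited table. Hemojuvelin (HJV, g10998), the coreceptor of iron metabolism, had 0.492 scaled counts in responders and 5.86 in non-responders (unadjusted p = 0.049 in the authors' deposited table). Its mean over all libraries was 2.28. Twisted gastrulation (TWSG1, g3586), which binds BMPs together with chordin, was abundant at 1391 scaled counts in responders and 1605 in non-responders (log2 -0.21).

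**Figure D4:**
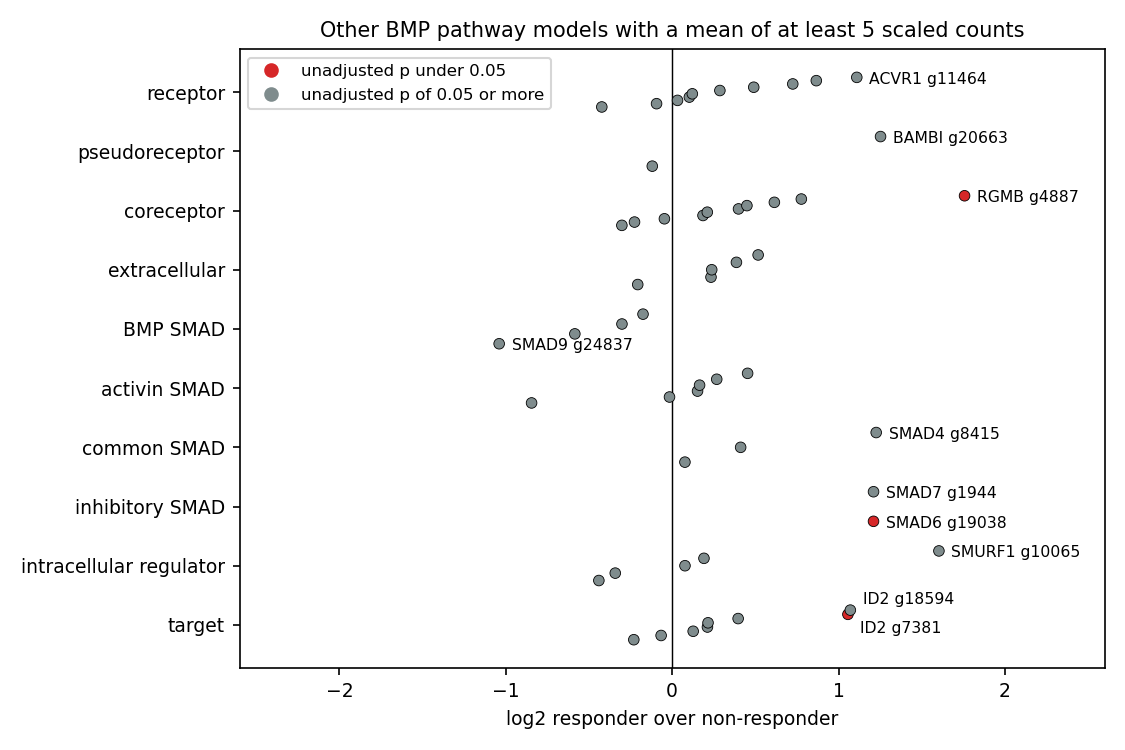
Log2 of responder over non-responder for the 55 other BMP pathway models averaging 5 or more scaled counts, 1 point per model, by class; red points have an unadjusted p under 0.05 and names are given beyond a log2 of 1 in either direction. Points spread to both sides of 0 in most classes. All 4 BMP SMAD models lie below 0, all 3 common SMAD (SMAD4) models above 0 and both inhibitory SMAD models near 1.21. None of the 55 was called.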

How the data were processed

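Ovarian mRNA libraries of 4 responders and 2 non-responders were compared, grouped by their phenotype label. The authors deposited 1 table, whose name credits DESeq; the sources used here name neither its version nor an aligner, counter or genome build. Per the file headers the signal is DESeq's base mean (read counts scaled by each library's size factor, then averaged) over all libraries and per condition. The authors deposited a fold, which is the ratio of the condition means, and a p-value with its adjusted value. The condition with a weight of 2 libraries in 6 was taken as the non-responders (largest deviation 3.5e-10). A further 6 columns of values per library match no label and were not used, so depth per library, spread, a count test and leave-one-out fits were not analysed here, and no value carries an error. The authors' test replaced the count test that was planned for labelled counts. The labels give each library its own animal tag and no batch or pairing.

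Members were taken by the words of the description. The log2 of each deposited fold was taken in Python 3.11.15 with pandas 2.3.3, and p-values were re-adjusted by Benjamini-Hochberg, checked on simulated data. Level per kilobase is the mean divided by the longest transcript. Names are those of the best protein match; 0 of 45974 identifiers matched RefSeq. Named members are those with an unadjusted p under 0.05, the 5 highest per length, the leading models of each role, and every noggin, chordin, gremlin, BMP2, BMP15, GDF9 and receptor model averaging 5 or more; others were named for context after their values were seen. Pathway genes were named at an unadjusted p under 0.05, others likewise for context. The members and lists were chosen with earlier results of these data known. Sequences were not analysed here.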

Additional observations from a re-analysis of the deposited data

How the results depend on the processing

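Noggin-2 g22318 stayed the single family call at an adjusted p under 0.10 and with the authors' DESeq p re-adjusted over models averaging 5 or more (adjusted p = 6.9e-05 by Benjamini-Hochberg over all such models) or 20 or more (adjusted p = 5.0e-05), and 0 family models were called lower. At an unadjusted p under 0.05 there were 3 higher family models, and 3 higher and 2 lower models of the other pathway genes. The 2 lower models averaged under 5 scaled counts over all libraries, but their non-responder means were above 5. The family's median log2 of 0.15 was 0.045 over the 32 models above 0 in both groups, 0.044 without BMP1, and 0.26 with the groups rescaled to equal sums, which adds 0.11 to every log2; it moved by less than 0.1 under the other 9 alternatives, 3 of them chosen after seeing the data. The median of 4 antagonist models, 1.76, was -0.11 over the 8 models above 0 in both groups. Equal sums turned the sign for BMP15 (0.017) and for BMPR1A g22847 (0.067). The other 11 of the 13 members that met the naming rule kept their sign under both rescalings and both pseudocounts. Models named for context were not checked in this way. Among them, the negative log2 values of KCP (-0.03) and ACVR2B g9184 (-0.09) are smaller in size than the 0.11 that equal sums add. No paired analysis was possible because the labels give no replicate numbers and values per library carry no label. Fits leaving out single animals and the planned edgeR fit were not run, because the unlabelled values per library were not used. Whether 1 animal sets the BMP2, chordin-like 1 or noggin-2 means was therefore not tested. Of the family models with a p, 21 had a mean under 5, and none of these had an unadjusted p under 0.05 in the authors' deposited table; depth per library was not analysed here.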
